A study of Saccharomyces cerevisiae x Saccharomyces kudriavzevii and Saccharomyces cerevisiae with 12 samples.

Results

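The expression of 32 genes of ergosterol synthesis and its control was examined in 2 wine yeast hybrids. The genes were chosen by their systematic names from a list that covers the pathway from ERG10 to ERG4, both HMG-CoA reductases, the electron donors, the sterol acyltransferases, HES1 and 4 transcription factors. They are 32 of the 6178 ORFs in the table of ratios, and all 32 had a value on all 12 arrays. The hybrids were VIN7 and Lalvin W27, both crosses of Saccharomyces cerevisiae and S. kudriavzevii, and each was set against the wine strain S. cerevisiae Lalvin T73. Cells came from fermentations of Tempranillo must at 12 or 28 °C and were taken as the stationary phase began. The 4 groups, each with 3 arrays named A, B and C, were VIN7 and W27 at 12 °C and VIN7 and W27 at 28 °C. Every array also held T73 grown at the same temperature. The genotype of both hybrids limits them as models of either parent, since each carries, for the most part, the S. cerevisiae chromosome set in a pair of copies and that of S. kudriavzevii once. The probes were S288c ORFs, the cDNA of both parental alleles was read together, and the binding of S. kudriavzevii cDNA to these probes was not assessed here.

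Ergosterol is the main sterol of yeast membranes, where it sets fluidity and permeability. Acetyl-CoA is turned into farnesyl diphosphate in the mevalonate pathway, farnesyl diphosphate is joined and closed into lanosterol, and a long series of demethylations, reductions and desaturations then gives ergosterol. Several of the later steps use molecular oxygen and haem, so that wine yeasts under anaerobic conditions depend on the sterol they made or took up before oxygen ran out. The transcription factors UPC2 and ECM22 activate many genes of the pathway when sterols are low, while HAP1 and ROX1 couple it to haem and oxygen. Sterol content is also known to be adjusted when yeast grows in the cold.

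All values are log2 ratios of hybrid over T73, so that 1 is a 2-fold higher and -1 a 2-fold lower signal in the hybrid. The direction is likely and not stated in the table: the labels give Cy3 for the hybrids and Cy5 for T73, and 25 of 25 directions that the study states for 14 other ORFs hold only after the sign of the table is turned. No dyes were swapped, so that dye and strain cannot be told apart. Values of all ORFs had an SD between 0.60 and 1.59 on the 12 arrays. Array C of the VIN7 group at 28 °C stood apart from the rest. Its r across ORFs was -0.38, -0.48, -0.60 and -0.70 with 4 of the 6 arrays at 12 °C. With W27 array A and VIN7 array C at 12 °C it was -0.16 and 0.10. At 28 °C it was 0.06 with each of VIN7 arrays A and B, and -0.22, -0.06 and -0.26 with the W27 arrays. Its direction is therefore not settled. Most of the counts, medians and separations at 28 °C that use it are therefore also given without it, with its sign turned, or both. Up or down regulation of a gene means here that its median over the arrays of a group reached 2-fold. A gene was called by limma when the Benjamini-Hochberg adjusted p over all ORFs was under 0.05. T73 is part of every ratio, and the p-values measure only the spread between arrays, which may be partly technical.

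Down regulation in W27 at 28 °C was the most frequent change among the ergosterol genes. In VIN7 at 28 °C, 3 of the 32 genes lay at or beyond 2-fold below T73, against 5.48% of all ORFs, and 0 lay beyond 2-fold above it, against 11.3% of all ORFs. In W27 at 28 °C, 10 genes were down regulated (6.08% of all ORFs) and 0 were up regulated (7.76%). At 12 °C the directions were mixed. In VIN7 at 12 °C, 4 genes were up regulated (13.9% of all ORFs) and 2 down regulated (11.9%), while in W27 at 12 °C 3 were up regulated (10.6%) and 5 down regulated (11.2%). The counts other than that of down regulated genes in W27 at 28 °C rested on single arrays. At 12 °C, without array C of VIN7, 7 genes were down regulated in place of 2, and without array B or C of W27, 1 in place of 5. In VIN7 at 28 °C, 5, 1 and 3 genes were up regulated without array A, B and C in place of 0. Without array C 14.6% of all ORFs were, and with its sign turned 0 genes were (7.12%). Down regulated there were 7 genes without array C (5.57% of all ORFs) and 8 with its sign turned (5.9%), in place of 3. For the other arrays left out, the shares of all ORFs are not given, so that those counts are not set against all ORFs. The median over the 32 genes at 12 °C was 0.01 for VIN7 and 0.16 for W27. At 28 °C it was -0.01 for VIN7 and -0.47 for W27, and the VIN7 median was -0.42 without array C and -0.45 with its sign turned, close to that of W27. Over all ORFs it was 0.04 for VIN7 and -0.06 for W27 at 12 °C, and 0.17 for VIN7 and 0.15 for W27 at 28 °C.

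**Figure D1:**
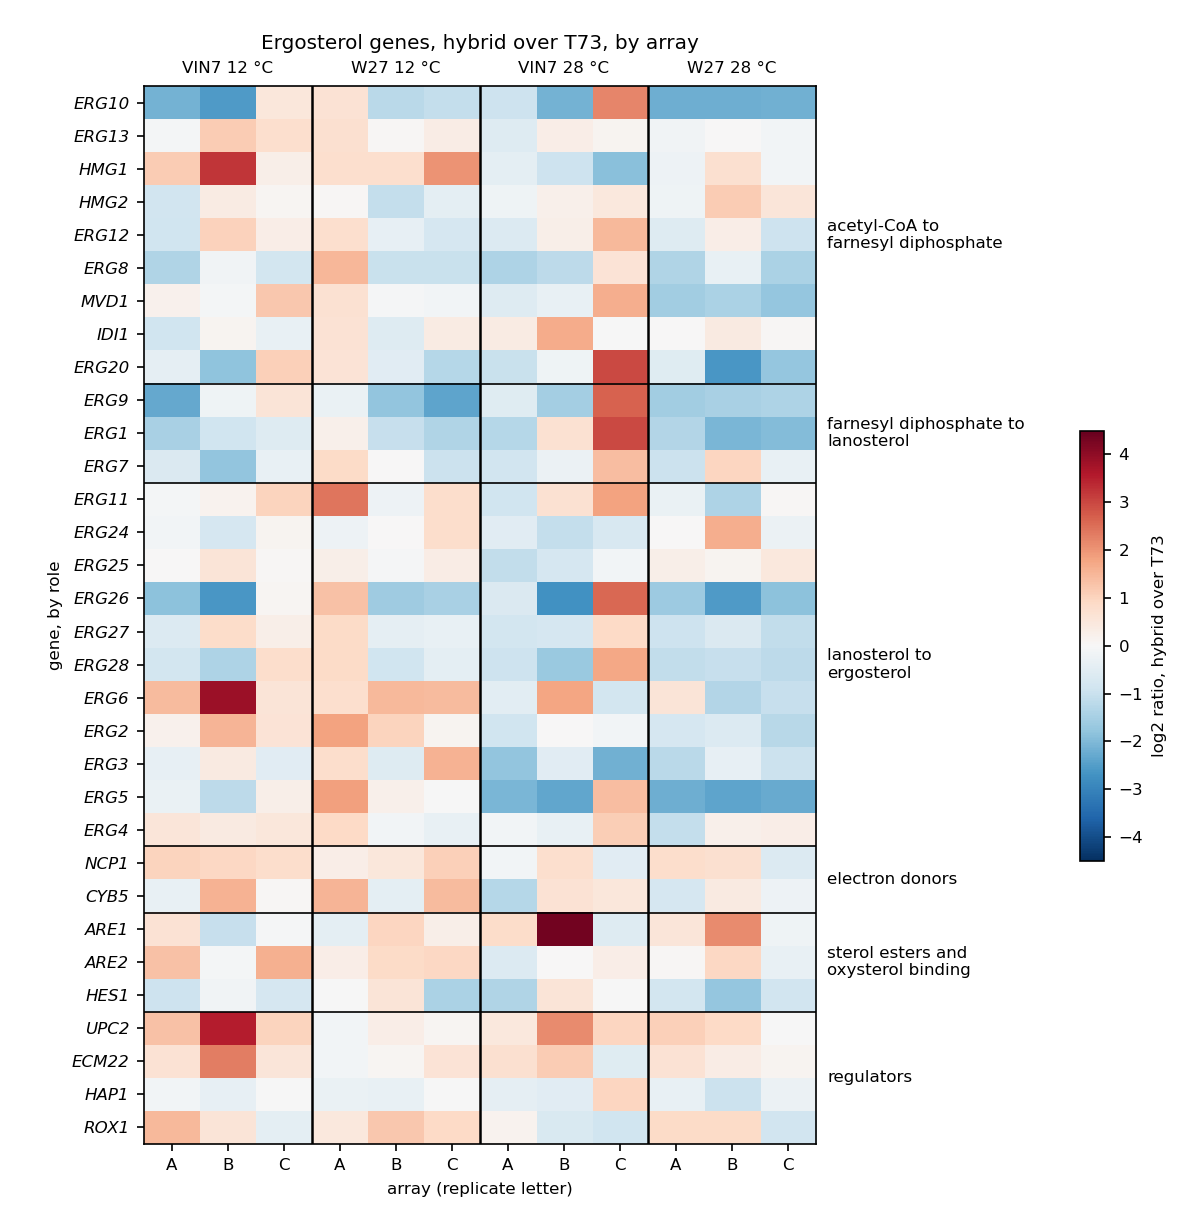
Log2 ratio of hybrid over T73 (colour, from blue for lower to red for higher) of the 32 ergosterol genes, in rows by role, on each of the 12 arrays, in columns by hybrid and temperature. The rows of ERG10 and ERG5 are blue on the 3 W27 arrays at 28 °C, with values between -2.36 and -2.16, while VIN7 array C at 28 °C is red for both.

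On single arrays the median of the 32 genes was -0.62, -0.23 and 0.57 in VIN7 at 28 °C (arrays A, B and C) and -0.57, -0.15 and -0.73 in W27 at 28 °C. At 12 °C it was -0.22, 0.13 and 0.27 in VIN7 and 0.66, -0.08 and 0.04 in W27. Thus 5 of the 6 arrays at 28 °C had a median below 0, and the exception was VIN7 array C. The array medians of all ORFs lay between -0.14 and 0.30.

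**Figure D2:**
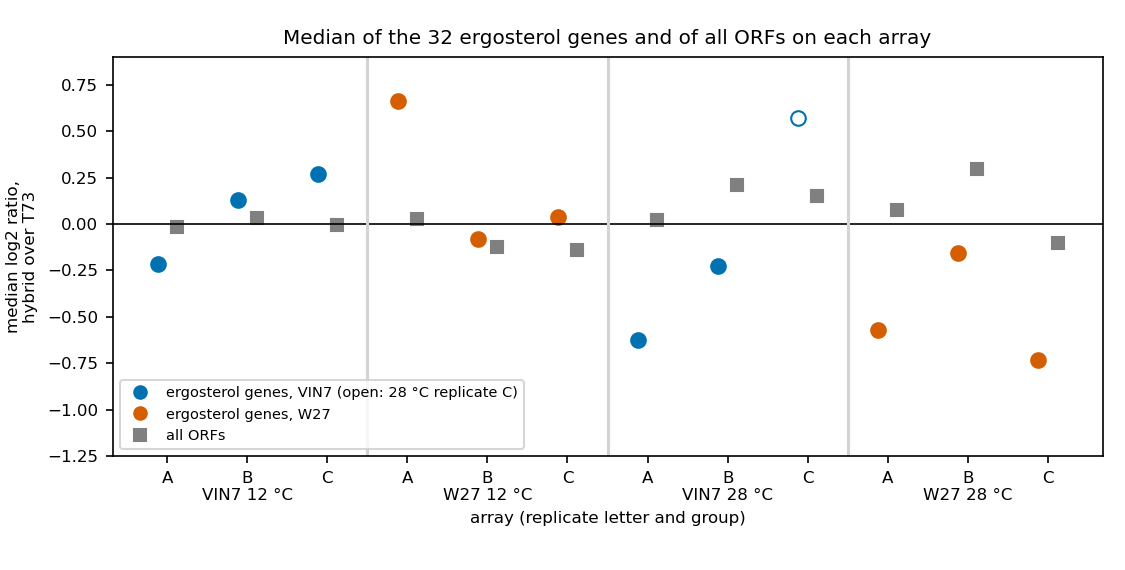
Median log2 ratio of hybrid over T73 on each array, for the 32 ergosterol genes (circles, coloured by hybrid) and for all ORFs (grey squares). At 28 °C the circles lie below the squares on 5 arrays and above on VIN7 array C, with 0.57 against 0.15 for all ORFs.

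By limma, 2 of the 32 genes were called in the mean of both hybrids at 12 °C, HMG1 and ERG6, both higher than in T73. These are 6.25% of the 32 genes, against 10.4% of all ORFs called there, so that the share did not exceed that of all ORFs. In the other comparisons with T73 limma called 0 of the 32 genes. Of all ORFs, 0.551% were called for VIN7 and 0% for W27 at 12 °C. At 28 °C 0.0162% were called for VIN7, 0.0324% for W27 and 0.179% for both hybrids. At an unadjusted p under 0.05 the counts were larger. In VIN7 at 28 °C, 1 gene was lower (3.78% of all ORFs) and 1 higher (10.1%), and in W27 at 28 °C 7 were lower (3.89%) and 0 higher (6.14%). In both hybrids at 28 °C, 4 were lower (3.25%) and 2 higher (10.9%). Without VIN7 array C at 28 °C, 5 genes were lower in VIN7 (3.1% of all ORFs) and 11 in both hybrids (5.59%). With its sign turned, 6 were lower in VIN7 (4.57%) and 11 in both hybrids (6.95%). That array also enters the test of W27 at 28 °C, since the spread is estimated over all 12 arrays. In W27 at 28 °C 10 genes were lower without it (5.1%) and 10 with its sign turned (4%), while 0 were higher (6.63 and 5.75%). In VIN7 at 12 °C, 6 genes were higher (11.9%) and 0 lower (9.15%), in W27 at 12 °C 2 were higher (7.55%) and 0 lower (7.19%), and in both hybrids at 12 °C 8 were higher (16.3%) and 0 lower (15.4%).

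The sign on single arrays needs no threshold on the size. On all 3 arrays of VIN7 at 28 °C 4 of the 32 genes were below T73 (13.3% of all ORFs) and 1 above it (19.9%). In W27 at 28 °C, 14 genes were below T73 on all 3 arrays (14.6%) and 3 above it (19%). The VIN7 counts depended on array C: 16 genes were below T73 and 4 above it on arrays A and B (25.7 and 32.5% of all ORFs), and with the sign of array C turned 12 were below T73 and 3 above it on all 3 arrays (12.5 and 12.6%). Over the 5 arrays at 28 °C other than VIN7 array C, 11 genes were below T73 on all arrays (6.57% of all ORFs) and 2 above it on all arrays, ECM22 and IDI1 (8.57%). With VIN7 array C as deposited, ERG3 alone was below T73 on all 6 arrays (1.73%), and with its sign turned 10 genes were (4.86%), without ERG3.

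**Figure D3:**
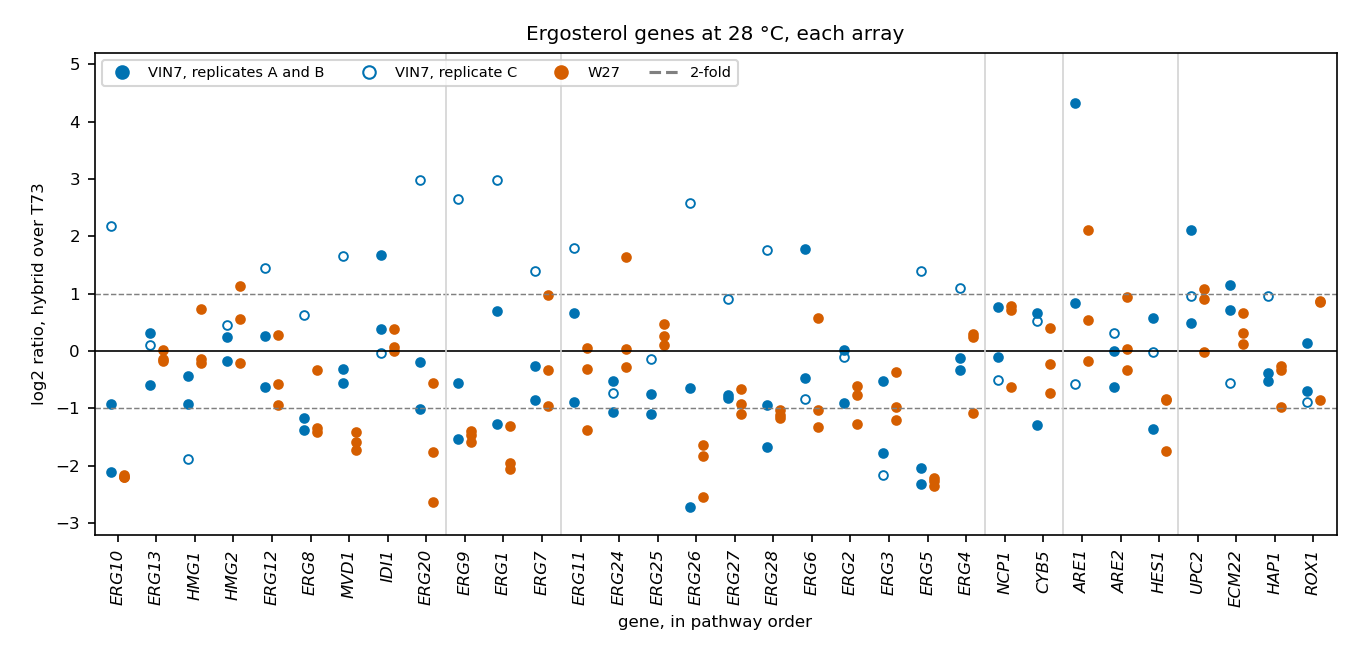
Log2 ratio of hybrid over T73 of each ergosterol gene at 28 °C, in pathway order from left to right, with 1 point per array (VIN7 left of W27, VIN7 array C open, dashed lines at 2-fold). The open points of ERG10, ERG20, ERG9, ERG1 and ERG26 lie above 2, while the W27 points of the same genes lie below 0.

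The first genes of the pathway make farnesyl diphosphate, and 4 of these 9 were down regulated in W27 at 28 °C (6.08% of all ORFs). ERG10 (YPL028W), the acetoacetyl-CoA thiolase that opens the pathway, read -0.93, -2.12 and 2.18 on the VIN7 arrays at 28 °C. In W27 at 28 °C it read -2.20, -2.20 and -2.16, a median 4.59-fold below T73. At 12 °C it was -2.13, -2.57 and 0.50 in VIN7 and 0.64, -1.22 and -1.06 in W27. ERG10 was thus beyond 2-fold down by its median in 3 of the 4 groups, but 1 array of each group other than W27 at 28 °C showed the opposite sign. The limma mean of W27 at 28 °C was -2.19 (SE 0.72, adjusted p = 0.409).

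MVD1 (YNR043W), the mevalonate diphosphate decarboxylase, read -0.56, -0.32 and 1.65 in VIN7 at 28 °C, against -1.58, -1.42 and -1.73 in W27 at 28 °C. The 3 VIN7 arrays lay above all W27 arrays as deposited, but with its sign turned VIN7 array C would read -1.65, inside the W27 range. At 12 °C its values lay between -0.08 and 1.22 in VIN7 and between -0.14 and 0.69 in W27. ERG8 (YMR220W), the phosphomevalonate kinase, was -1.38, -1.18 and 0.63 in VIN7 and -1.34, -0.33 and -1.41 in W27 at 28 °C, so that 2 arrays of each hybrid were beyond 2-fold down. ERG20 (YJL167W), the farnesyl diphosphate synthase, was -1.01, -0.19 and 2.99 in VIN7 at 28 °C. On the W27 arrays of that temperature ERG20 was -0.56, -2.62 and -1.76, all below T73 but spread over more than 2 log2 units.

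HMG1 (YML075C), 1 of the 2 HMG-CoA reductases and the main rate-controlling enzyme of the pathway, went the other way at low temperature. It read 1.15, 3.23 and 0.27 in VIN7 and 0.74, 0.77 and 2.01 in W27 at 12 °C, above T73 on all 6 arrays. At 28 °C it was -0.43, -0.93 and -1.88 in VIN7 and -0.22, 0.73 and -0.13 in W27. HMG1 was higher than in T73 in the mean of both hybrids at 12 °C, with 1.36 (95% CI 0.57 to 2.16, limma adjusted p = 0.0399). This call was lost without W27 array B, W27 array C, VIN7 array A or VIN7 array B at 12 °C (adjusted p between 0.118 and 0.164). It was also lost with the sign of VIN7 array C at 28 °C turned (adjusted p = 0.0544). HMG2 (YLR450W), the second reductase, had group means between -0.50 and 0.50 and was beyond 2-fold in 0 of the 4 groups.

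The HMG-CoA synthase ERG13, the mevalonate kinase ERG12 and the isomerase IDI1 also stayed inside 2-fold in all 4 groups. Their group means lay between -0.09 and 0.59 for ERG13, between -0.41 and 0.36 for ERG12 and between -0.37 and 0.67 for IDI1. Of the 9 genes up to farnesyl diphosphate, 4 were below T73 on all 3 arrays of W27 at 28 °C (14.6% of all ORFs) and 1, IDI1, was above it (19%).

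The 3 genes that lead on to lanosterol had group means below 0 in W27 at both temperatures and in VIN7 at 12 °C. ERG1 (YGR175C), the squalene epoxidase and the first enzyme of the pathway that needs oxygen, read -1.27, 0.70 and 2.98 in VIN7 at 28 °C. On the W27 arrays of that temperature it was -1.30, -2.05 and -1.96, a median 3.89-fold below T73. The hybrids did not overlap as deposited, but with its sign turned VIN7 array C would read -2.98, below all W27 arrays. At 12 °C ERG1 was -1.46, -0.88 and -0.59 in VIN7 and 0.24, -1.05 and -1.34 in W27, so that 5 of 6 arrays were below T73. ERG9 (YHR190W), the squalene synthase at the branch towards sterols, was -0.56, -1.54 and 2.65 in VIN7 at 28 °C. On the W27 arrays of that temperature it was -1.58, -1.46 and -1.40. In VIN7 at 12 °C ERG9 read -2.30, -0.19 and 0.59, while W27 at 12 °C had -0.29, -1.78 and -2.36, a median 3.44-fold below T73 with a wide spread. The lanosterol synthase ERG7 (YHR072W) was inside 2-fold in every group by its median.

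Among the 11 genes between lanosterol and ergosterol, 4 were down regulated in W27 at 28 °C (6.08% of all ORFs) and 6 were below T73 on all of its 3 arrays (14.6%). ERG5 (YMR015C), the cytochrome P450 that desaturates the sterol side chain, had the lowest median of the 32 genes in any group. It read -2.04, -2.32 and 1.40 in VIN7 at 28 °C. On the W27 arrays of that temperature it was -2.21, -2.36 and -2.27 (mean -2.28 ± 0.074, SD, n = 3), a median 4.81-fold below T73. At 12 °C ERG5 was -0.30, -1.17 and 0.26 in VIN7 and 1.83, 0.22 and -0.02 in W27, so that its median was inside 2-fold at that temperature.

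ERG5 in the mean of both hybrids at 28 °C was -1.63 (95% CI -2.57 to -0.70) and missed the threshold (limma adjusted p = 0.172). Without VIN7 array C at 28 °C it was -2.23 and was called (adjusted p = 0.0108). With the sign of that array turned it was -2.10 and was also called (adjusted p = 0.00896). In W27 at 28 °C alone the adjusted p of ERG5 was 0.313.

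The genes of the complex that removes the methyl groups next to the sterol hydroxyl were low in W27 at 28 °C with 1 exception. ERG26 (YGL001C), its decarboxylating dehydrogenase, read -0.65, -2.72 and 2.58 in VIN7 and -1.64, -2.54 and -1.84 in W27 at 28 °C. At 12 °C it was -1.83, -2.64 and 0.08 in VIN7 and 1.32, -1.61 and -1.45 in W27, so that its median was beyond 2-fold down in 3 of the 4 groups. ERG28 (YER044C), the scaffold of the complex, was -1.11, -1.02 and -1.17 in W27 at 28 °C, a narrow range just beyond 2-fold. The ketoreductase ERG27 (YLR100W) was -0.93, -0.66 and -1.10 there, just inside 2-fold by its median. In VIN7 at 28 °C ERG28 was -0.94, -1.68 and 1.76 and ERG27 was -0.82, -0.77 and 0.91. Both were thus also below T73 on VIN7 arrays A and B. In contrast the methyl sterol oxidase ERG25 (YGR060W) was -1.10, -0.74 and -0.14 in VIN7 at 28 °C and 0.27, 0.11 and 0.47 in W27 at 28 °C.

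ERG6 (YML008C), the sterol methyltransferase that makes the yeast sterol side chain, was the second gene called in both hybrids at 12 °C. It read 1.41, 3.84 and 0.57 in VIN7 and 0.74, 1.47 and 1.43 in W27 at 12 °C, above T73 on all 6 arrays and beyond 2-fold by the median of both hybrids. At 28 °C it was -0.47, 1.78 and -0.83 in VIN7 and 0.58, -1.33 and -1.02 in W27. ERG6 was higher in the mean of both hybrids at 12 °C, with 1.58 (95% CI 0.63 to 2.53, limma adjusted p = 0.0416). The call was lost without the same 4 arrays at 12 °C as that of HMG1 (adjusted p between 0.128 and 0.164).

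ERG2 (YMR202W), the sterol isomerase that acts after ERG6, was also above T73 on all 6 arrays at 12 °C, with 0.19, 1.51 and 0.61 in VIN7 and 1.82, 1.00 and 0.12 in W27. Its mean over both hybrids was 0.88 (SE 0.29) and missed the threshold (limma adjusted p = 0.0686). At 28 °C ERG2 was -0.91, 0.01 and -0.11 in VIN7 and -0.76, -0.61 and -1.27 in W27. In both hybrids the 12 °C arrays lay above all 28 °C arrays.

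ERG3 (YLR056W), the sterol desaturase that follows ERG2, was the gene with the same sign on all 6 arrays at 28 °C. It read -1.77, -0.52 and -2.17 in VIN7 and -1.20, -0.36 and -0.98 in W27. Its mean over both hybrids was -1.16 (95% CI -1.86 to -0.47, limma adjusted p = 0.172). Unlike most low genes, ERG3 was also below 0 on VIN7 array C. With the sign of that array turned its mean in VIN7 at 28 °C was -0.04, against -1.48 as deposited. At 12 °C it was -0.37, 0.41 and -0.52 in VIN7 and 0.79, -0.58 and 1.56 in W27, with both signs in each hybrid.

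ERG11 (YHR007C), the lanosterol demethylase and the target of azole drugs, stayed inside 2-fold by its median in the 4 groups. It was -0.08, 0.15 and 1.00 in VIN7 and 2.39, -0.23 and 0.80 in W27 at 12 °C. At 28 °C it was -0.88, 0.67 and 1.80 in VIN7 and -0.31, -1.38 and 0.06 in W27. Its arrays had both signs in every group. The reductases ERG24 and ERG4 had group means between -0.77 and 0.47 and between -0.18 and 0.49.

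Of the electron donors, NCP1 (YHR042W), the reductase that feeds electrons to ERG11 and ERG5, was above T73 on all 6 arrays at 12 °C. It read 1.00, 0.92 and 0.78 in VIN7 and 0.31, 0.51 and 1.08 in W27, with a mean over both hybrids of 0.77 (95% CI 0.17 to 1.36, limma adjusted p = 0.0851). Together with HMG1, ERG6 and ERG2, NCP1 made up the 4 ergosterol genes above T73 on all 6 arrays at 12 °C. These are 12.5% of the 32 genes, near the 10.5% of all ORFs. HAP1 was the 1 gene below T73 on all 6 (11.8%). The cytochrome b5 gene CYB5 (YNL111C) was -0.34, 1.57 and 0.04 in VIN7 at 12 °C, against 1.53, -0.44 and 1.44 in W27, beyond 2-fold up by its median there.

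The sterol acyltransferases ARE1 and ARE2 store sterols as esters. ARE2 (YNR019W), the major one, was 1.31, -0.09 and 1.62 in VIN7 and 0.30, 0.87 and 0.93 in W27 at 12 °C, up regulated in VIN7 by the median. At 28 °C its group means were -0.10 in VIN7 and 0.22 in W27. ARE1 (YCR048W) had the highest single value of the 32 genes, 4.33 on VIN7 array B at 28 °C, where arrays A and C gave 0.83 and -0.57. HES1 (YOR237W), an oxysterol-binding protein homologue, was -1.36, 0.58 and -0.02 in VIN7 at 28 °C, against -0.83, -1.74 and -0.86 in W27.

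**Figure D4:**
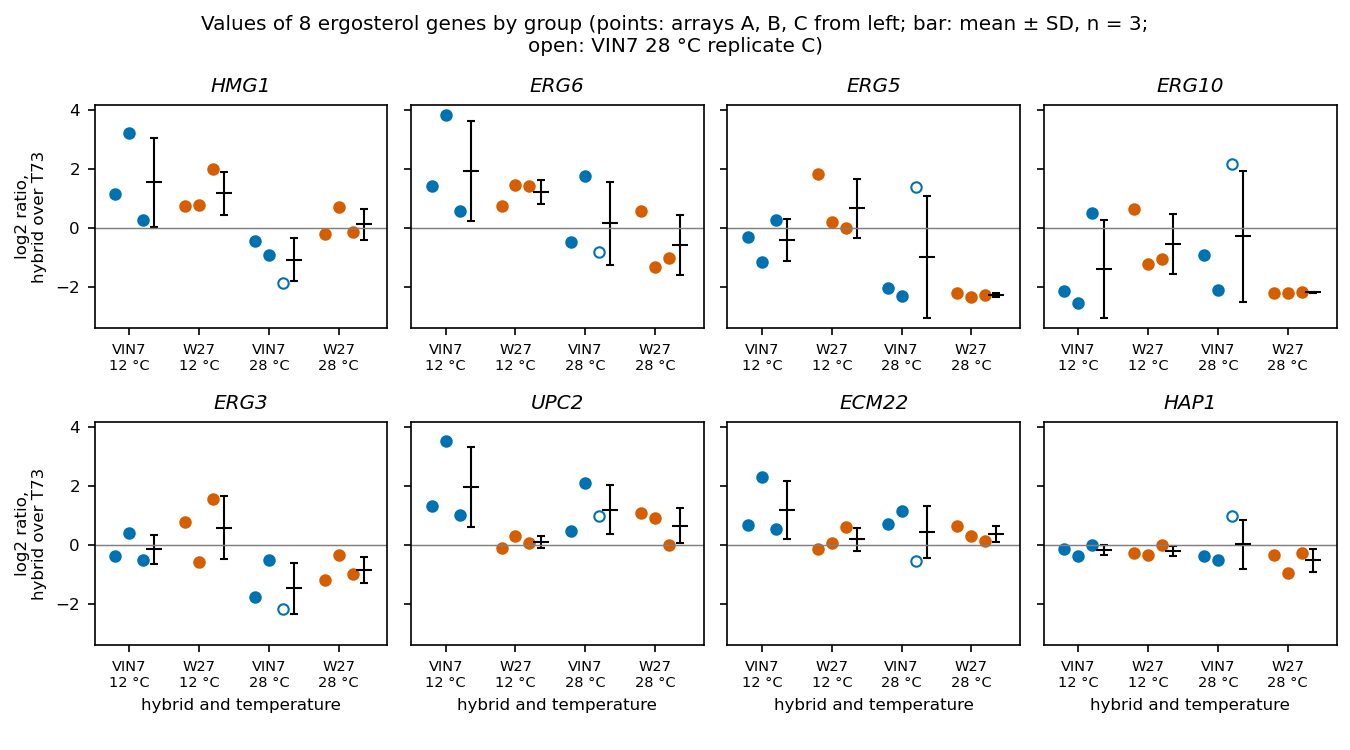
Log2 ratio of hybrid over T73 of 8 ergosterol genes in the 4 groups (points, arrays A, B and C from left to right; bars, mean ± SD, n = 3; blue, VIN7; orange, W27). HMG1 and ERG6 lie above 0 on all 6 arrays at 12 °C, ERG5 and ERG10 lie near -2 in W27 at 28 °C, and UPC2 in VIN7 at 12 °C lies above all W27 points of that temperature.

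Of the 4 transcription factors, UPC2 had the largest difference between the hybrids at 12 °C. UPC2 (YDR213W), an activator of sterol synthesis and uptake genes, read 1.33, 3.53 and 1.02 in VIN7 and -0.11, 0.30 and 0.08 in W27 at 12 °C. It was the 1 gene of the 32 whose VIN7 arrays lay above all W27 arrays at 12 °C (3.61% of all ORFs), and 0 genes had them all below (2.31%). That 1 gene is 3.1% of the 32, no more than the share of all ORFs. The difference between the hybrids was not called (limma adjusted p = 0.9997). At 28 °C UPC2 was 0.49, 2.11 and 0.97 in VIN7 and 1.08, 0.90 and -0.02 in W27, with overlap. Against T73 its mean in VIN7 at 12 °C was 1.96 (95% CI 0.91 to 3.01) and missed the threshold (limma adjusted p = 0.0974). Without array C the mean was 2.43 and was called (adjusted p = 0.0453), and without array B, the highest one, it was 1.18 (adjusted p = 0.649).

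ECM22 (YLR228C), the paralogue of UPC2, was 0.66, 2.31 and 0.54 in VIN7 and -0.13, 0.08 and 0.61 in W27 at 12 °C. At 28 °C it was 0.71, 1.16 and -0.55 in VIN7 and 0.66, 0.32 and 0.13 in W27. Both regulators were highest on VIN7 array B at either temperature. Those arrays also had the widest values over all ORFs at their temperatures, with an SD of 1.59 each, and the part of this spread in both genes was not tested.

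HAP1 (YLR256W), the haem-responsive activator, stayed within a narrow range at 12 °C, with -0.13, -0.37 and -0.02 in VIN7 and -0.29, -0.33 and -0.002 in W27. At 28 °C it was -0.39, -0.52 and 0.97 in VIN7 and -0.34, -0.97 and -0.26 in W27. ROX1 (YPR065W), the haem-dependent repressor of hypoxic genes, was 1.45, 0.59 and -0.45 in VIN7 and 0.48, 1.22 and 0.89 in W27 at 12 °C. At 28 °C ROX1 was 0.14, -0.70 and -0.88 in VIN7 and 0.87, 0.85 and -0.85 in W27, with both signs in each hybrid. In W27 at 28 °C, where 10 genes of the pathway were down regulated, the 4 regulators had means between -0.52 and 0.65 and were inside 2-fold.

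The hybrids were compared with each other by the difference VIN7 minus W27. Limma called 0 of the 32 genes and 0% of all ORFs at either temperature. At an unadjusted p under 0.05, 1 gene (UPC2) was higher at 12 °C (1.51% of all ORFs) and 0 lower (0.714%), while 3 genes (ERG1, ERG20 and MVD1) were higher at 28 °C (5.97%) and 0 lower (3.02%). Both without VIN7 array C and with its sign turned, 0 genes were higher at 28 °C (3.3 and 0.828% of all ORFs). Lower at 28 °C were 1 gene, ERG25, without that array (1.5%) and 0 with its sign turned (1.4%). UPC2 differed by 1.87 at 12 °C (95% CI 0.39 to 3.36, limma adjusted p = 0.9997), and by 1.09 without VIN7 array B. At 28 °C the VIN7 arrays of ERG1, MVD1 and ERG10 lay above all W27 arrays (7.36% of all ORFs), and those of ERG25, HMG1 and ERG24 below them (6.39%). On VIN7 arrays A and B alone these 6 genes and ECM22 lay apart from W27. That made 4 genes above (9.89% of all ORFs) and 3 below (9.09%), near the shares of all ORFs. With the sign of array C turned 0 genes lay apart in either direction (1.98% of all ORFs above and 3.23% below). The difference of ERG1 was 2.57 (95% CI 0.74 to 4.41) as deposited, 1.49 without VIN7 array C and 0.59 with its sign turned.

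The temperatures were compared as 12 minus 28 °C, a difference of 2 ratios whose T73 cells had also grown at different temperatures, so that a change in T73 enters it. Limma called 0 of the 32 genes and 0% of all ORFs in each hybrid. In VIN7, HMG1 was higher at 12 °C at an unadjusted p under 0.05 (8.62% of all ORFs) and 0 genes lower (11.1%). Without VIN7 array C at 28 °C, HMG1 and ERG5 were higher (4.09%) and IDI1 and ARE1 lower (6.4%). With its sign turned, MVD1 and ERG5 were higher (1.43%) and ARE1 lower (2.55%). In W27, 4 genes (ERG3, ERG5, ERG2 and MVD1) were higher (1.95%) and 0 lower (3.73%). The arrays of W27 at 12 °C lay above all those at 28 °C for 10 genes, namely ERG10, ERG13, HMG1, MVD1, ERG26, ERG27, ERG28, ERG6, ERG2 and ERG5 (4.91% of all ORFs), and below them for 0 (9.94%). In VIN7 this was the case for HMG1, ERG25, ERG2 and NCP1 (8.57%), and for 0 in the other direction (12.1%). Without VIN7 array C at 28 °C, the 12 °C arrays lay above for 9 genes (10.3% of all ORFs) and below for IDI1 and ARE1 (15%). With the sign of that array turned, they lay above for 7 genes, MVD1, ERG27, ERG2, ERG5, ERG4, NCP1 and HAP1 (2.12% of all ORFs). They no longer did so for HMG1 and ERG25, and lay below for 0 genes (4.58%). The difference of ERG5 in W27 was 2.95 (95% CI 1.08 to 4.82, limma adjusted p = 0.752), and that of HMG1 in VIN7 was 2.63 (95% CI 1.04 to 4.22, adjusted p = 0.175). The HMG1 difference was 2.23 without VIN7 array C at 28 °C (adjusted p = 0.457) and 1.38 with its sign turned (adjusted p = 0.9994).

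Other genes near the pathway were taken from 5 lists with 37 genes in all: sterol import, sterol ester hydrolysis and transport, partners of ERG enzymes, isoprenoid branches, and targets of HAP1 or ROX1. Of the 37, 1 was up regulated (13.9% of all ORFs) and 5 down regulated (11.9%) in VIN7 at 12 °C, and 0 (10.6%) and 2 (11.2%) in W27 at 12 °C. At 28 °C 6 were up regulated (11.3%) and 2 down regulated (5.48%) in VIN7, and 1 (7.76%) and 3 (6.08%) in W27. Without VIN7 array C, 6 were up regulated (14.6%) and 2 down regulated (5.57%) in VIN7 at 28 °C, the same counts as deposited. With the sign of VIN7 array C turned, 1 was up regulated (7.12%) and 1 down regulated (5.9%) in VIN7 at 28 °C. The median of their means in W27 at 28 °C was 0.07, against -0.47 for the 32 ergosterol genes. Limma called 3 of the 37, all lower in the mean of both hybrids at 12 °C, and 0 in the other comparisons. These are 8.11% of the lists, against 10.4% of all ORFs called there, so that the share lay near that of all ORFs. They were OLE1, the fatty acid desaturase (-1.89, SE 0.51, adjusted p = 0.0401), and OSH7 and OSH6, lipid transfer proteins of the oxysterol-binding family (-1.32, adjusted p = 0.0324, and -1.01, adjusted p = 0.0468). OLE1 read -2.13, -2.50 and -1.73 in VIN7 and -1.66, -1.23 and -2.06 in W27 at 12 °C. At 28 °C it was -0.85, -3.63 and 2.10 in VIN7 and -1.96, -3.08 and -2.19 in W27. OLE1 is 1 of the 8 HAP1 or ROX1 targets, whose directions were mixed. VIN7 at 28 °C had 4 of the 8 up regulated and 0 down regulated as deposited. For W27 at that temperature the counts were 1 and 2. At 12 °C 1 was up and 1 down regulated in VIN7, against 0 and 1 in W27. CYC1 and ANB1 lay above T73 on all 12 arrays as deposited, but limma called neither. From other lists, COQ1 and NPC2 (2 arrays) were up regulated in VIN7 at 28 °C, with medians of 1.80 and 1.56.

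According to the study, genes on chromosomes IV, V, IX, XIV and XV of W27 can have another allele number because these chromosomes are chimeric. By their systematic names 7 of the 32 genes lie there: UPC2, ERG28, ERG24, CYB5, MVD1, ARE2 and HES1. In VIN7 the S. kudriavzevii part of chromosome III, which carries ARE1, is lost, and chromosome VII, with ERG1, ERG25, ERG26 and ERG4, is partly of S. cerevisiae alone. Of the 10 genes down regulated in W27 at 28 °C, MVD1 and ERG28 lie on chimeric chromosomes of W27, while the others, such as ERG5 and ERG10, do not. The allele number of single ergosterol genes was not analysed here, and its part in the ratios was not tested.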

How the data were processed

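The deposited table gives a log2 ratio for each of 6178 ORFs and 2 control features on each array, and 0 of its columns lack a sample. The authors made these ratios from scans read in GenePix Pro with a global background. Print tip differences were corrected by hand and spots that the software could not find were left out, both after the arrays had been normalized in Acuity 4.0. Spot intensities were not used here, so that signal over background is unknown, and precision is limited by the number of arrays. The authors' median and 2-fold rule was kept, with a value on at least 2 arrays. The source description of the W27 arrays at 28 °C names 12 °C, while their titles give 28 °C, which was used. The labels call the arrays replicates, whereas the methods describe 2 fermentations and 3 hybridizations.

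Values were multiplied by -1 to read as hybrid over T73. Each ORF was fitted in R 4.3.3 by limma 3.58.1 with 4 group means over 12 arrays and moderated variances, which was checked on simulated data, and 10 contrasts were tested with Benjamini-Hochberg adjustment over all ORFs. The main fit paired no arrays, so that the differences between 12 and 28 °C are unpaired. In VIN7 the deviations of same-letter arrays at 12 and 28 °C correlated with r = 0.31, 0.22 and 0.57, each over 0.1. In the other comparisons the letters were not all over 0.1. The letters entered only through the replicate blocks among the alternatives. Alternatives were the mean over arrays instead of the median, ORFs complete on the 3 arrays of a group, a 1.5-fold threshold, recentring and scaling of each array, extremes set to the 0.1 and 99.9% quantiles, a trend along names removed (running median over 51 ORFs), the sign of VIN7 array C at 28 °C turned, a replicate block, array weights, a fit of only the arrays compared, ORFs with a value on all 12 arrays and leaving out each array. A block within the VIN7 arrays alone was added after seeing the data. Named genes were the 12 with the largest group median of 1 sign on all arrays, with ERG11, HES1, ECM22, HAP1 and ROX1 always given. The other genes named, such as ERG2, NCP1, ARE1 and ARE2, were chosen after their values were seen. The table holds systematic names only. Gene names and roles were added from general knowledge of yeast and were not checked against an annotation, and no sequences are shown. The members and lists were chosen with earlier results of these data known. Python 3.11.15 was used with numpy 2.4.6, pandas 2.3.3 and, for the figures, matplotlib 3.10.9.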

Additional observations from a re-analysis of the deposited data

How the results depend on the processing

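The down regulation in W27 at 28 °C was steady in number: between 9 and 12 genes were down regulated when each of its arrays was left out, and the other alternatives stayed within 1.5 times the 10. Each of the other counts moved by more than 1.5 times, or from 0, when some array of its group was left out. Leaving out each array of the group gave 2 to 5 up and 2 to 7 down regulated genes in VIN7 at 12 °C, 3 to 5 up and 1 to 5 down in W27 at 12 °C, 1 to 5 up and 2 to 7 down in VIN7 at 28 °C, and 0 to 1 up in W27 at 28 °C. With the mean in place of the median, 2 genes were up regulated in VIN7 at 28 °C and 1 was down regulated in W27 at 12 °C. A 1.5-fold threshold gave 9 up and 7 down in VIN7 and 8 up in W27 at 12 °C, and 5 up and 11 down in VIN7 and 3 up in W27 at 28 °C. Recentring left 2 down in W27 at 12 °C. Recentring with scaling gave 1 up and 5 down in VIN7 at 28 °C and 5 up and 2 down in W27 at 12 °C, and removing the trend along names left 1 down in W27 at 12 °C. With the sign of VIN7 array C turned, 8 were down in VIN7 at 28 °C (5.9% of all ORFs). The other counts of this paragraph are not set against all ORFs, whose share can also change with the alternative.

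The limma calls in both hybrids at 12 °C numbered 0 to 3 when an array was left out, 6 with recentring and scaling, 11 with array weights and 1 with the sign of VIN7 array C at 28 °C turned. Those in both hybrids at 28 °C numbered 0 to 1, 1 with array weights (ERG5) and 2 with that sign turned (ERG5 and ERG10). Array weights also called 2 genes in W27 at 28 °C, ERG5 (adjusted p = 0.0346) and MVD1 (adjusted p = 0.0378), and VIN7 at 12 °C had 0 to 1 calls when an array was left out. The shares of all ORFs called under these alternatives are not given, so that larger counts are not read as a result about the 32 genes. The cause of these changes was not tested. A replicate block over all arrays called the same 2 genes, HMG1 and ERG6, in both hybrids at 12 °C and 0 elsewhere, and within the VIN7 arrays alone, an alternative added after seeing the data, the replicate block called 0 of the 32 genes between 12 and 28 °C. It changed no other call. The medians over the 32 genes stayed within 1 SD of the array medians of the group under every alternative run. They lay between -0.45 and 0.25 in VIN7 at 28 °C and between -0.58 and -0.40 in W27 at 28 °C. In VIN7 at 28 °C that SD was 0.61 with array C in it, so that this limit cannot show that the median there was steady. It moved from -0.01 to -0.42 without array C and to -0.45 with its sign turned.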
